A study of Arabidopsis thaliana with 48 samples.

Results

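The leaves of 2 Arabidopsis mutants, *elp2-5* and *met1-7*, were compared directly with each other. The comparison took the 8 leaf libraries of *elp2-5* and the 8 of *met1-7*, chosen by their sample labels, which is 16 of the 48 RNA-seq libraries of the series. Each genotype had 4 spaceflight (FT) and 4 ground control (GC) libraries, and environment was a covariate of the comparison. Both mutants are in the Col-0 background, so neither is a wild type, and the 8 Col-0 leaf libraries (4 FT and 4 GC) are given beside the mutants only to place their levels.

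All plants were 11-day-old seedlings that had grown on plates of solid nutrient medium under constant light in Veggie growth hardware, on the International Space Station for FT and in a station simulator chamber at Kennedy Space Center for GC. The groups were *elp2-5* FT, *elp2-5* GC, *met1-7* FT and *met1-7* GC. Each library held all leaves of several pooled plants from a pair of plates, except that a *met1-7* FT replicate, not identified in the sources used here, came from a single plate. Each mutant is represented by 1 allele, and the p-values measure the spread between these plate pools. The values are FPKM, fragments per kilobase of transcript scaled to the mapped fragments of the library, which the authors computed with RSEM.

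Elongator is a complex of several subunits that travels with RNA polymerase II, where it acetylates histones, and that also modifies the wobble position of tRNAs. ELP2 is its WD40-repeat scaffold subunit. Elongator mutants of Arabidopsis are known for narrow leaves, sensitivity to abscisic acid and anthocyanin accumulation. MET1 is the methyltransferase that copies CG methylation onto new DNA strands, and *met1* mutants are known for the loss of this mark and for the transcription of genes and transposons that it keeps silent in wild type. The direct comparison asks how the leaf transcriptome of an Elongator mutant differs from that of a CG methylation mutant.

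The FPKM of a library summed to between 930848 and 949266 in *elp2-5*, against 941597 and 957669 in *met1-7*. Between 18762 and 19026 genes reached 1 FPKM in *elp2-5* libraries and between 18367 and 18760 in *met1-7* libraries. The 21 light harvesting and Rubisco genes, the leaf markers, summed to 71377 to 93800 FPKM in *elp2-5* and 94314 to 107495 FPKM in *met1-7*, against 97491 to 120413 FPKM in Col-0. The 12 root markers summed to 386 to 617 FPKM in *elp2-5* and 211 to 328 FPKM in *met1-7*, of which *PYK10*, a beta-glucosidase of endoplasmic reticulum bodies, held up to 616 and 327 FPKM. Of the 12, 9 in *elp2-5* and 10 in *met1-7* stayed under 1 FPKM in every library, and 1 was at 0 throughout in *met1-7*. The 12 seed storage and oil body genes summed to at most 3.62 FPKM in *elp2-5* and 0.78 FPKM in *met1-7*. In Col-0 they summed to at most 1.01 FPKM in 7 libraries and to 1661 FPKM in GC replicate 4. The part of light harvesting and root transcripts in the differences given here was not tested.

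*ELP2* (AT1G49540, TAIR10.1 chr1:18333623-18337520) had 3.99, 3.57, 3.98 and 3.47 FPKM in the *elp2-5* FT libraries and 3.57, 3.77, 3.24 and 3.47 in the *elp2-5* GC libraries, against 6.77, 7.51, 7.35 and 8.16 in the *met1-7* FT libraries and 7.3, 6.91, 6.73 and 7.34 in the *met1-7* GC libraries. Every *elp2-5* library lay below every *met1-7* library (log2 fold change −0.91, SE 0.048, limma adjusted p = 2.91e-10), and Col-0 libraries had 7.38, 8.08 and 9.13 FPKM as their lowest, median and highest. Mean FPKM were 3.63 in *elp2-5* and 7.26 in *met1-7*. The fitted difference, on log2(FPKM + 0.5), was 1.88-fold, so *ELP2* missed the 2-fold limit of a differentially expressed gene (DEG). Its exons overlap another annotated gene, and reads of such pairs may not be separable, since the strand setting of the read counting is not given in the sources used here. *MET1* (AT5G49160, TAIR10.1 chr5:19932114-19938470) had 16.1, 18.9, 17.2 and 16.6 FPKM in the *elp2-5* FT libraries and 19.3, 20.4, 20.3 and 19.9 in the *elp2-5* GC libraries, against 15.2, 12.4, 14.5 and 13.6 in the *met1-7* FT libraries and 12.4, 11.0, 14.4 and 10.8 in the *met1-7* GC libraries. The lowest *elp2-5* library lay above the highest *met1-7* library, by less than 2-fold on average (log2 fold change 0.5, SE 0.076, limma adjusted p = 3.06e-05), and the Col-0 libraries, with 12.7, 13.5 and 14.7 FPKM, overlapped those of *met1-7*. The *MET1* transcript level thus gave no check of the *met1-7* label.

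None of the 7 genes of the Elongator list (the subunits and the Elongator-associated *DRL1*) was a DEG. Apart from *ELP2*, their log2 fold changes ran from −0.10 for *ELO3*, which encodes the acetyltransferase subunit, to 0.35 for *ELP6*. *DRL1*, the member of highest mean, had 15.1 to 17.5 FPKM in *elp2-5* and 13.1 to 16.4 FPKM in *met1-7*, and the groups overlapped (log2 fold change 0.08, SE 0.048, limma adjusted p = 0.149).

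Of 19581 genes tested, 1283 were DEGs between the mutants. These were 949 genes up-regulated in *elp2-5* relative to *met1-7* (4.85% of the genes tested) and 334 down-regulated (1.71%). A DEG had a Benjamini-Hochberg adjusted p under 0.05 in limma, differed by 2-fold or more, and was not at 0 FPKM throughout either mutant. The fold was that of the fitted log2(FPKM + 0.5), so genes whose mean FPKM differ 2-fold can fall short of it. Without the fold limit, 8767 genes were higher (44.8%) and 3800 lower (19.4%) in *elp2-5*, and the median log2 fold change of all genes tested was 0.12. After median-ratio scaling, which moved that median to 0.005, the split was 752 up and 443 down, and after quantile normalization 737 up and 451 down. Gene-wise values of the 8 and 8 libraries did not overlap for 4737 genes (24.2%), among them 731 of the up-regulated and 259 of the down-regulated DEGs.

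**Figure D1:**
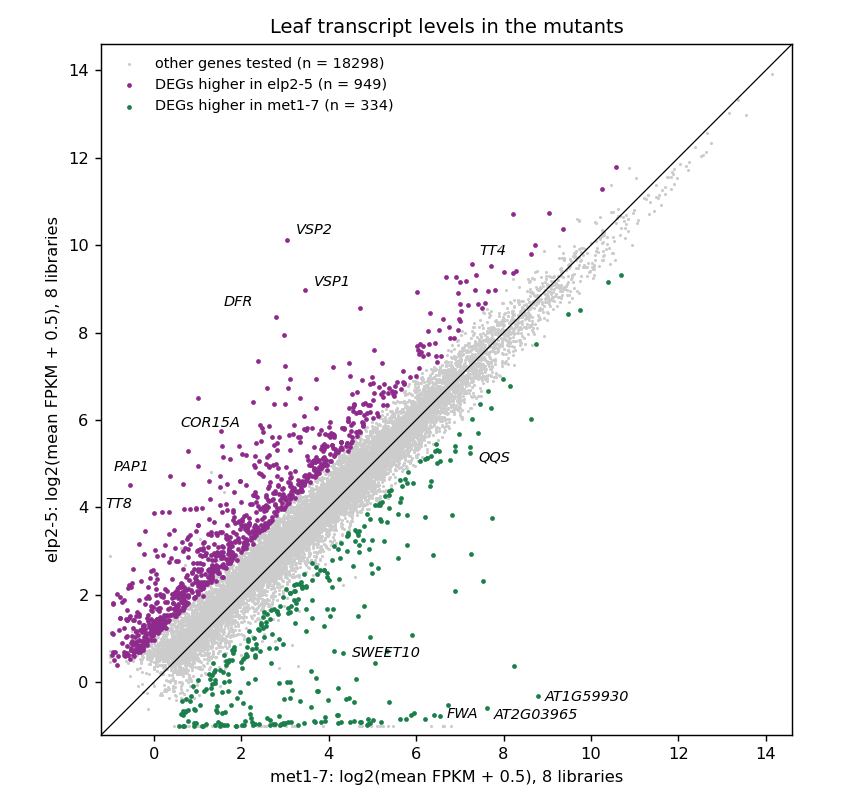
Each point is 1 of 19581 genes, with its level in *elp2-5* on the y axis and in *met1-7* on the x axis, both as log2(mean FPKM + 0.5) over 8 leaf libraries. Purple points are the 949 DEGs higher in *elp2-5*, green points the 334 DEGs higher in *met1-7*, grey points the other genes, and the line marks equal levels. The green points along the lower edge are genes near 0 FPKM in *elp2-5*.

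Up-regulated DEGs had a median absolute log2 fold change of 1.38, with 173 of 949 at 2 or more and 13 (1.37%) at 4 or more. Down-regulated DEGs had a median of 1.60, with 125 of 334 at 2 or more and 49 (14.7%) at 4 or more. Median expression over the 16 libraries was 6.32 FPKM for the up-regulated and 6.3 FPKM for the down-regulated DEGs. The Col-0 mean lay nearer to *met1-7* than to *elp2-5* for 839 of the 949 up-regulated DEGs and for 193 of the 334 down-regulated DEGs. It lay between the mutants for 678 and 187 of these DEGs. In bulk leaves, fewer cells of a type and less RNA per cell cannot be told apart.

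Among DEGs without overlap, the largest differences were at loci that *met1-7* transcribed and that were near 0 in *elp2-5*. A gene was tested if it had at least 1 FPKM in at least 4 of the 16 libraries. Loci with no *elp2-5* library at 1 FPKM passed this filter only through *met1-7*, so their direction was largely set by it. *FWA* and *SDC* are among them. *FWA*, a homeodomain gene that is silent in wild-type leaves, is known to be kept off by CG methylation of repeats at its start, and its ectopic transcription delays flowering. The gene lies at TAIR10.1 chr4:13038360-13042464. It had 0.07, 0.08, 0.08 and 0.05 FPKM in the *elp2-5* FT libraries and 0.05, 0.09, 0.16 and 0.09 in the *elp2-5* GC libraries, against 111, 128, 127 and 50.5 in the *met1-7* FT libraries and 83.4, 124, 59.4 and 66.8 in the *met1-7* GC libraries. Every *met1-7* library was above 50 FPKM and every *elp2-5* library at or under 0.16 FPKM (log2 fold change −7.25, SE 0.18, limma adjusted p = 6.72e-14), and Col-0 had 0, 0.03 and 0.11 FPKM. The fitted fold changes of genes near 0 depend on the 0.5 FPKM added before taking logs and understate the change.

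*SDC*, an F-box gene at chr2:7682162-7684083, is known to be silenced through methylated tandem repeats in its promoter. It had 0.16, 0.06, 0.05 and 0.07 FPKM in the *elp2-5* FT libraries and 0.09, 0, 0.09 and 0.21 in the *elp2-5* GC libraries, against 162, 250.4, 43.8 and 0.58 in the *met1-7* FT libraries and 62.6, 152, 0.23 and 2.43 in the *met1-7* GC libraries. Libraries of *elp2-5* stayed at or under 0.21 FPKM and did not overlap those of *met1-7*, but *met1-7* itself spread over 3 orders of magnitude. Its FT replicate 4 and GC replicates 3 and 4 were far below the other 5. *SDC* was a DEG over all 16 libraries (log2 fold change −5.17, SE 1.21, limma adjusted p = 0.00192) and in FT, and missed the threshold in GC (limma adjusted p = 0.0526). Exons of *FWA* and of *SDC* overlap other annotated genes.

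The 250 bases before the annotated start of both genes are shown because both genes are known for methylated repeats near their starts, with each CG in capitals (RefSeq, TAIR10.1; FWA at chr4:13038110-13038359, plus strand, SDC at chr2:7681912-7682161, plus strand).
FWA: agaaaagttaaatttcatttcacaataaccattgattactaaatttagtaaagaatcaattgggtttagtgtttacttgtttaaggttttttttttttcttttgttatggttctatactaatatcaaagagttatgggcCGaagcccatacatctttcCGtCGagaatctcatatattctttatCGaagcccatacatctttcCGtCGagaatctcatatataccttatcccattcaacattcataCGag
SDC: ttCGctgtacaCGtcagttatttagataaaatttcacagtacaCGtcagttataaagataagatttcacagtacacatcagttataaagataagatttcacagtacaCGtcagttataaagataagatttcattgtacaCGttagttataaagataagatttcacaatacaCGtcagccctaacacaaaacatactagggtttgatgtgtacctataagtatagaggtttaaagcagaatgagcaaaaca

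The *FWA* window held 7 CG and the *SDC* window 6, and the median over 19409 windows of genes tested was 5. In *FWA* an exact repeat of 38 bases, with 3 CG in each copy, began at −111 and again at −66 from the gene start, 45 bases apart. In *SDC* an exact repeat of 38 bases with 1 CG began at −220 and again at −156, 64 bases apart. Each was the longest exact repeat without overlap in its window. Inexact copies were not searched, so further copies between or beside these are not counted. The CG of the *SDC* window began at −248, −239, −207, −143, −111 and −79. DNA methylation of these windows was not analysed here.

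*QQS*, a gene of starch metabolism known for variable silencing between Arabidopsis lines, was the other tested member of the list of loci known to be silenced by DNA methylation. It had 54.0, 23.3, 37.3 and 52.3 FPKM in the *elp2-5* FT libraries and 16.1, 58.9, 21.2 and 38.0 in the *elp2-5* GC libraries, against 158, 132, 142 and 169.8 in the *met1-7* FT libraries and 151, 135, 153 and 156 in the *met1-7* GC libraries. All *elp2-5* libraries were below all *met1-7* libraries (log2 fold change −2.1, SE 0.24, limma adjusted p = 2.65e-06), yet *elp2-5* was not silent, and Col-0 had 6.23, 11.5 and 34.0 FPKM. Of the 12 genes of this list, 3 passed the expression filter and these 3 were down-regulated, which is a count among members that one mutant alone could bring through the filter. The other 9 members, among them the imprinted genes *MEA*, *FIS2* and *PHE1*, did not reach 1 FPKM in 4 libraries.

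The 12 DEGs with the largest falls and no overlap between the mutants included *FWA* and 11 loci of little known function. Those with no *elp2-5* library at 1 FPKM passed the expression filter only through *met1-7*, which largely set their direction. *AT1G59930* and *AT1G59920*, neighbouring MADS-box genes on chromosome 1, each with a near-identical copy in the annotation, had the highest single values. *AT1G59930* had 0.15, 0.14, 0.13 and 0 FPKM in the *elp2-5* FT libraries and 0.73, 1.11, 0 and 0.14 in the *elp2-5* GC libraries, against 797, 1159.6, 274 and 45.2 in the *met1-7* FT libraries and 359, 794, 22.9 and 86.6 in the *met1-7* GC libraries. The *met1-7* libraries spanned 50.5-fold, with the lowest values in the same FT replicate 4, GC replicate 3 and GC replicate 4 as for *SDC* (log2 fold change −8.27, SE 0.77, limma adjusted p = 5.26e-07). Reads of near-identical copies can be split between loci by the counting, so both values are uncertain.

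*AT2G03965*, an uncharacterized gene whose exons overlap another annotation, had 0.14, 0.25, 0.03 and 0.05 FPKM in the *elp2-5* FT libraries and 0.13, 0.26, 0.4 and 0.03 in the *elp2-5* GC libraries, against 218, 289.7, 138 and 143 in the *met1-7* FT libraries and 251, 165, 220.2 and 163 in the *met1-7* GC libraries. It was at or under 0.4 FPKM in *elp2-5* and above 137 FPKM in *met1-7* (log2 fold change −8.21, SE 0.16, limma adjusted p = 2.71e-15). *AT2G15555*, a non-coding RNA gene, had 0.05, 0.27, 0.25 and 0.04 FPKM in the *elp2-5* FT libraries and 0.14, 0.07, 0.38 and 0.41 in the *elp2-5* GC libraries, against 102, 111, 116 and 105 in the *met1-7* FT libraries and 106, 100.3, 101 and 107 in the *met1-7* GC libraries. The 8 *met1-7* libraries lay within 1.15-fold of each other (log2 fold change −7.27, SE 0.10, limma adjusted p = 8.49e-18). Col-0 had 0.19, 22.5 and 35.6 FPKM, with FT replicate 2 inside the range of *elp2-5* and the other 7 libraries between the mutants.

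*AT3G44265*, annotated as beta-galactosidase-like, had the smallest adjusted p of the 12, with 0 to 0.22 FPKM in *elp2-5* and 50.7 to 65.4 FPKM in *met1-7* (log2 fold change −6.64, SE 0.071, limma adjusted p = 1.83e-19). *AT1G36085*, annotated as a mutator-like transposase, had 0 to 0.15 FPKM in *elp2-5* and 35.2 to 65.1 FPKM in *met1-7* (log2 fold change −6.46, SE 0.10, limma adjusted p = 2.16e-17). The log2 fold changes of *AT1G23915*, *AT5G01080* and *AT5G34869* were −7.04, −6.6 and −6.08. For *AT2G04735*, a long non-coding RNA gene, and *AT4G07965*, a single *elp2-5* library was above 0, at 0.93 and 0.42 FPKM. Without that library (*elp2-5* GC replicate 3 and GC replicate 1) neither counted as a DEG, because the call asks for FPKM above 0 in both mutants, and the log2 fold changes were −6.87 and −6.00.

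**Figure D2:**
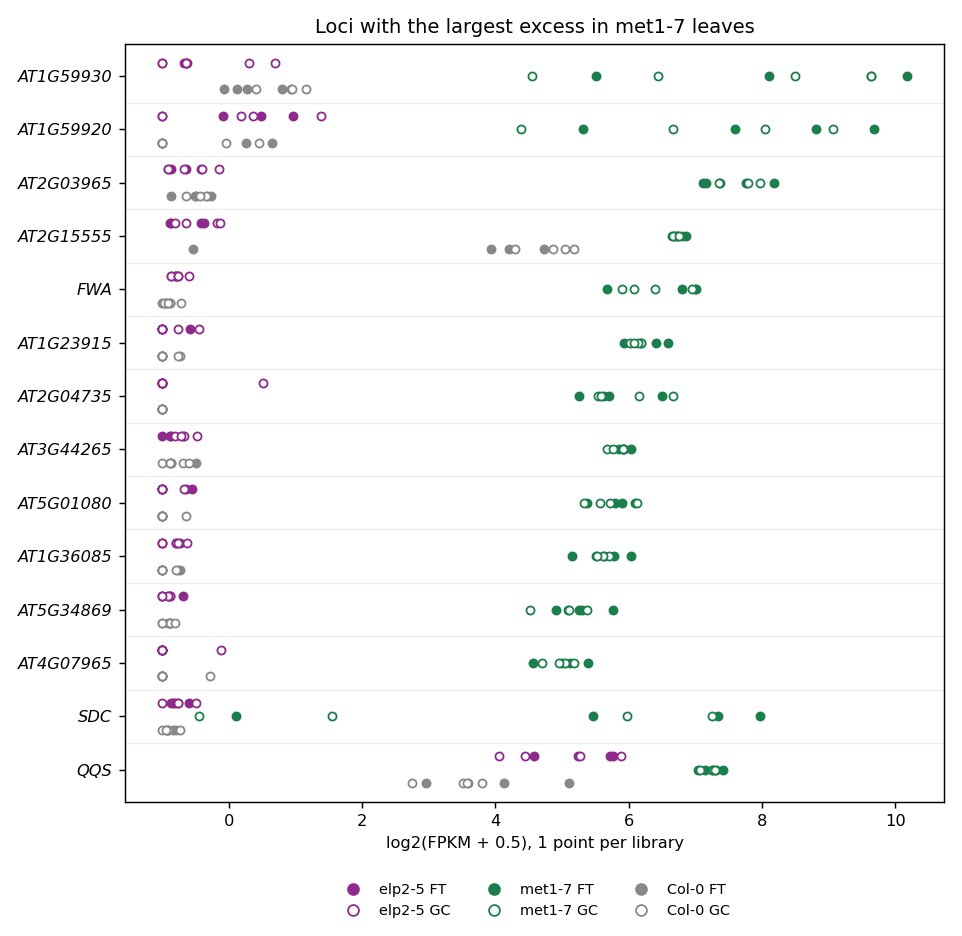
Points are single leaf libraries and the x axis is log2(FPKM + 0.5). The rows are the 12 loci with the largest falls and *SDC* and *QQS*, with *elp2-5* in purple, *met1-7* in green and Col-0 in grey, FT filled and GC open. The *met1-7* points lie to the right of every *elp2-5* point in each row, and those of *AT1G59930*, *AT1G59920* and *SDC* are spread widest.

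In all, 58 DEGs averaged under 0.5 FPKM in *elp2-5* and at least 5 FPKM in *met1-7*, and 46 of them also averaged under 0.5 FPKM in Col-0. In the other direction there were 7 such DEGs (*AT1G12030*, *SULTR1;3*, *AT2G37870*, *BHLH100*, *DXPS1*, *NUDT24* and *AT5G38020*), of which 1 averaged under 0.5 FPKM in Col-0. These limits were chosen after the values were seen. A further 71 genes passed the adjusted p and the fold limit but were at 0 FPKM in all 8 libraries of a mutant and so are not DEGs. Of these, 66 were at 0 in *elp2-5*, with *met1-7* means from 0.871 to 110 FPKM (median 3.93), and 55 of the 66 were also at 0 in all 8 Col-0 libraries. The other 5 were at 0 in *met1-7*, with *elp2-5* means of up to 6.92 FPKM. The highest of the 66 was *MIR854c*. *MIR854a* to *MIR854e*, with *met1-7* means of 97.9 to 110 FPKM, each have a near-identical copy, so reads can be split between them. The 66 are thus not all independent loci. Some were also at 0 in a *met1-7* library, such as *AT3G24516*, with 0 to 99.48 FPKM.

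Some of the *met1-7* loci varied between the *met1-7* libraries. Among the 58, 25 stayed within 2-fold over the 8 *met1-7* libraries, and 15 had a highest library more than 5 times the lowest or a lowest at 0. The 3 lowest *met1-7* libraries of *SDC* (FT replicate 4, GC replicates 3 and 4) were also the 3 lowest for 18 of the other 57, and for 12 of the other 14 that varied most. *GRP19*, a glycine-rich protein gene, ran from 2.24 to 66.0 FPKM over the *met1-7* libraries, *AT2G37125* from 0.09 to 17.1 FPKM, and *AT3G24542* only from 12.8 to 16.1 FPKM.

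Annotated products of the down-regulated DEGs included transposon-related proteins. Of 20 genes with transposase in the product name, 14 were tested and 6 were down-regulated. Of the 14, 7 had no *elp2-5* library at 1 FPKM and so passed the filter only through *met1-7*, and these hold 5 of the 6. Among Ulp1 protease genes, all 6 tested passed only through *met1-7* and 5 were down-regulated, and among genes named Beta-galactosidase related 5 of 9 did, with 4 of the 5 down-regulated DEGs. Their direction was thus largely set by the filter. The transposase gene *AT4G04265* had 0, 0 and 0.14 FPKM in *elp2-5*, against 18.3, 22.4 and 26.1 FPKM in *met1-7* as lowest, median and highest (log2 fold change −5.4, SE 0.085, limma adjusted p = 2.16e-17). These product names were picked after the values were seen. Of 18648 protein-coding genes tested, 1.55% were down-regulated, against 5.06% of 613 long non-coding and 11.1% of 108 other non-coding RNA genes. Up-regulated DEGs made up 4.93%, 2.61% and 9.26% of these classes. The same filter acts on them.

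Annotated pseudogenes near the DEGs were counted as well. At least 10 pseudogenes began within 100 kb of 24.7% of the down-regulated DEGs, of 48.3% of the 58 loci near 0 in *elp2-5*, of 9.18% of the up-regulated DEGs and of 6.92% of all genes tested. The medians were 3, 8.5, 2 and 2 pseudogenes. The 58 loci are among the down-regulated DEGs, and their limits were chosen after the values were seen. They passed the expression filter largely through *met1-7*, so their share partly compares loci near silence in *elp2-5* with expressed genes. These shares are descriptions, and neighbouring genes are not independent.

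Genes tested that write, read and erase DNA methylation were 10 maintenance genes, 5 of demethylation and 18 of RNA-directed methylation. They included 3 DEGs, all up-regulated, beside 4.85% up-regulated over all genes tested. None of the 10 methylation maintenance genes was a DEG, with log2 fold changes from −0.04 for *VIM2* to 0.50 for *MET1*. *DML1* (ROS1), the glycosylase that removes methylated cytosine, had 28.5, 34.2, 29.2 and 28.9 FPKM in the *elp2-5* FT libraries and 28.2, 26.5, 26.1 and 29.5 in the *elp2-5* GC libraries, against 13.5, 5.33, 9.73 and 18.7 in the *met1-7* FT libraries and 10.0, 13.1, 14.3 and 14.7 in the *met1-7* GC libraries. All *elp2-5* libraries were above all *met1-7* libraries (log2 fold change 1.25, SE 0.18, limma adjusted p = 3.23e-05), and the Col-0 libraries, with 19.2, 21.8 and 24.3 FPKM, lay between them. *IBM1*, a histone demethylase gene that protects genes from methylation, had 7.74 to 9.31 FPKM in *elp2-5* and 3.78 to 6.19 FPKM in *met1-7* and was under the fold limit (log2 fold change 0.76, SE 0.072, limma adjusted p = 1.96e-07).

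Of the 18 genes tested for RNA-directed DNA methylation, which targets new methylation through small RNAs, 2 were up-regulated and 0 down-regulated, and the list median was 0.36. Over all genes tested, 4.85% were up-regulated. Both encode CLASSY chromatin remodellers that bring RNA polymerase IV to its targets. *chr31* had 1.93 to 2.49 FPKM in *elp2-5* and 0.42 to 0.85 FPKM in *met1-7* (log2 fold change 1.31, SE 0.098, limma adjusted p = 1.28e-08), and *CHR42* had 1.42 to 2.28 FPKM in *elp2-5* and 0.43 to 0.88 FPKM in *met1-7* (log2 fold change 1.08, SE 0.094, limma adjusted p = 7.35e-08), each without overlap. *CHR42* was under the fold limit with 1 FPKM added before logs (0.82), after median-ratio scaling (1.00) and after quantile normalization (0.91). *AGO4*, the effector of highest mean, had 28.7 to 37.6 FPKM in *elp2-5* and 21.8 to 26.4 FPKM in *met1-7* (log2 fold change 0.45, SE 0.054, limma adjusted p = 2.81e-06).

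Of the 12 largest rises in *elp2-5* among DEGs without overlap, 7 were genes of anthocyanin synthesis. Anthocyanins are flavonoid pigments made in leaves under stress, by early enzymes shared with flavonols and late enzymes under the control of a complex of MYB, bHLH and WD40 proteins. All 7 late enzymes tested were up-regulated, with a median log2 fold change of 5.03, and 8 of 10 early flavonoid genes, with a median of 1.93. Over all genes tested, 4.85% were up-regulated and the median was 0.12.

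Among the regulators, *PAP1*, the MYB activator, had 16.8, 29.9, 27.2 and 18.25 FPKM in the *elp2-5* FT libraries and 41.2, 22.9, 22.5 and 28.9 in the *elp2-5* GC libraries, against 0.38, 0.38, 1.38 and 0.97 in the *met1-7* FT libraries and 1.21, 0.74, 0.93 and 0.43 in the *met1-7* GC libraries. The lowest *elp2-5* library was above 16 FPKM and the highest *met1-7* library was 1.38 FPKM (log2 fold change 4.35, SE 0.20, limma adjusted p = 9.74e-11). Its relatives *MYB90*, with 13.2 to 35.5 FPKM in *elp2-5* and 1.58 to 6.54 FPKM in *met1-7*, and *MYB113*, with 1.0 to 9.78 FPKM in *elp2-5* and 0 to 0.49 FPKM in *met1-7*, were also higher without overlap (log2 fold changes 2.9 and 2.48). *TT8*, the bHLH partner, had 8.7 to 22.8 FPKM in *elp2-5* and 0.31 to 0.73 FPKM in *met1-7* (log2 fold change 3.84, SE 0.15, limma adjusted p = 5.61e-12), while *TTG1*, the WD40 partner, had a log2 fold change of −0.08. *MYBL2*, a repressor of the pathway, was the only one of the 9 regulators that was down-regulated. It had 16.2 to 37.8 FPKM in *elp2-5* and 34.0 to 76.8 FPKM in *met1-7*, and the groups overlapped only through *elp2-5* FT replicate 1 (log2 fold change −1.2, SE 0.15, limma adjusted p = 4.47e-06).

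Early enzymes convert coumaroyl-CoA to dihydroflavonols. *TT4* (chalcone synthase) had 430.3, 897, 934 and 608 FPKM in the *elp2-5* FT libraries and 738, 759, 813 and 906 in the *elp2-5* GC libraries, against 92.4, 75.7, 129 and 129 in the *met1-7* FT libraries and 246, 203, 205 and 166 in the *met1-7* GC libraries. All *elp2-5* libraries were above all *met1-7* libraries (log2 fold change 2.35, SE 0.19, limma adjusted p = 6.05e-08), and *met1-7* was lower in FT than in GC. *TT5* (chalcone isomerase), *F3H* and *TT7* (flavonoid 3′-hydroxylase) rose by 2.00, 2.2 and 3.75 on the log2 scale. The flavonol synthase *FLS1* (0.8) and the flavonol activator *MYB111* (0.17) were the members that missed the DEG threshold.

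Late enzymes turn dihydroflavonols into coloured, decorated pigments. *DFR*, the first of them, had 201.3, 378, 449.6 and 221 FPKM in the *elp2-5* FT libraries and 332, 315, 298 and 431 in the *elp2-5* GC libraries, against 6.11, 1.94, 5.69 and 3.75 in the *met1-7* FT libraries and 7.76, 7.55, 8.86 and 9.72 in the *met1-7* GC libraries. Libraries of *elp2-5* were at least 20 times the highest *met1-7* library, and within *met1-7* the FT libraries were all below the GC libraries (log2 fold change 5.64, SE 0.23, limma adjusted p = 8.17e-11). *LDOX*, the next enzyme, had 139.5, 259, 336 and 158 FPKM in the *elp2-5* FT libraries and 251, 256, 249 and 309.5 in the *elp2-5* GC libraries, against 6.76, 2.1, 6.78 and 4.2 in the *met1-7* FT libraries and 8.62, 10.07, 10.9 and 10.07 in the *met1-7* GC libraries. The lowest *elp2-5* library was 12.8 times the highest *met1-7* library, and the lowest *elp2-5* values were in FT replicates 1 and 4 (log2 fold change 5.03, SE 0.23, limma adjusted p = 2.91e-10). Sugars are added by *UF3GT* and *AT4G14090*, malonate by *AT5MAT*, and *GSTF12* carries the pigment to the vacuole, and these rose by 5.55, 4.16, 4.53 and 5.03 on the log2 scale. Col-0 medians of *DFR* and *LDOX*, 10.2 and 12.3 FPKM, were near the *met1-7* levels. Exons of *TT4*, *F3H*, *AT4G14090* and *GSTF12* overlap other annotated genes.

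The window upstream of *DFR* (RefSeq, TAIR10.1, chr5:17166033-17166282, minus strand) is shown for the G-box CACGTG, a site that bHLH proteins can bind, in capitals at −14.
DFR: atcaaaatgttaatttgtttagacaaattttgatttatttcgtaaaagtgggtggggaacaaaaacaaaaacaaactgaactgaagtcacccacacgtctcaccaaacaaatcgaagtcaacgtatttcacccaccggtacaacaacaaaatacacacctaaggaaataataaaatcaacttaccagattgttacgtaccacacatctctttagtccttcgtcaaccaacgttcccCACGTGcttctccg

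A G-box, searched on both strands, was in the window of 3 of 7 late anthocyanin genes, 11.7% of the up-regulated DEGs, 4.22% of the down-regulated DEGs and 7.22% of all genes tested. A match of letters is a description, not a binding site.

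**Figure D3:**
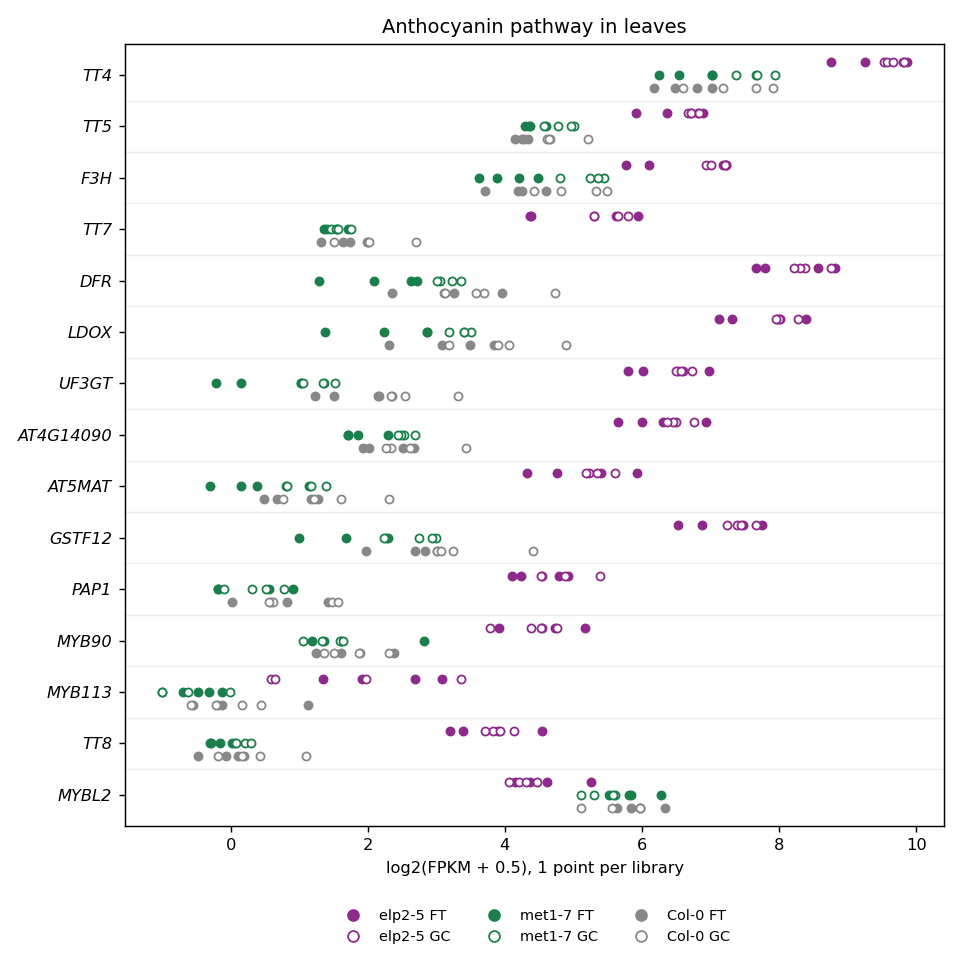
Points are single leaf libraries of 15 anthocyanin pathway genes, enzymes in order and then regulators, and the x axis is log2(FPKM + 0.5). *elp2-5* is purple, *met1-7* green and Col-0 grey, with FT filled and GC open. All *elp2-5* points of the enzymes and activators lie to the right of all *met1-7* points, and *MYBL2* runs the other way.

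Jasmonate genes were the other large group that was higher in *elp2-5*. Jasmonate is a lipid hormone of wounding and defence, made in the chloroplast by LOX, AOS and AOC enzymes and finished by OPR3, and its JAZ repressors and the activator MYC2 set the response. Of 30 genes tested, 19 were up-regulated and 1 down-regulated (list median 1.38). The shares over all genes tested were 4.85% up-regulated and 1.71% down-regulated, with a median of 0.12.

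*VSP2*, a jasmonate-induced vegetative storage protein, showed the largest rise of any DEG without overlap. It had 1063, 1410.3, 1779 and 1155 FPKM in the *elp2-5* FT libraries and 946, 420.3, 1503 and 539 in the *elp2-5* GC libraries, against 8.41, 3.52, 12.2 and 12.9 in the *met1-7* FT libraries and 7.18, 2.73, 8.99 and 5.92 in the *met1-7* GC libraries. Even the lowest *elp2-5* library, GC replicate 2, was more than 32 times the highest *met1-7* library (log2 fold change 7.07, SE 0.32, limma adjusted p = 2.67e-10), and Col-0, with 21.6, 39.2 and 299.9 FPKM, lay between the mutants. *VSP1* had 501, 547, 758 and 582 FPKM in the *elp2-5* FT libraries and 466.1, 87.1, 930.2 and 155 in the *elp2-5* GC libraries, against 14.1, 2.33, 11.8 and 18.7 in the *met1-7* FT libraries and 4.59, 1.25, 21.6 and 9.64 in the *met1-7* GC libraries. Its *elp2-5* GC replicates 2 and 4 were low and the mutants did not overlap (log2 fold change 5.63, SE 0.59, limma adjusted p = 1.69e-06).

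Among the synthesis enzymes, *LOX2* had 713, 626, 604 and 455 FPKM in the *elp2-5* FT libraries and 769.7, 388, 894 and 464 in the *elp2-5* GC libraries, against 112, 106, 148 and 147 in the *met1-7* FT libraries and 56.0, 50.6, 109 and 91.2 in the *met1-7* GC libraries. The lowest *elp2-5* library was 388 FPKM and the highest *met1-7* library 148 FPKM (log2 fold change 2.62, SE 0.23, limma adjusted p = 1.59e-07). *AOS*, *AOC2* and *OPR3* rose by 1.65, 2.13 and 1.55 on the log2 scale. Among the response genes, *MYC2* (1.92), *JAZ1* (1.51), *JAZ5* (2.37) and *JAZ10* (1.16) rose as well, and so did *CORI3*, with 112 to 394 FPKM in *elp2-5* and 18.5 to 44.9 FPKM in *met1-7* (log2 fold change 2.53, SE 0.26, limma adjusted p = 1.11e-06). The defensin gene *PDF1.2b*, a marker of the branch shared with ethylene, was down-regulated (log2 fold change −1.93, SE 0.50, limma adjusted p = 0.00401). Its libraries overlapped, with 1.45 to 14.1 FPKM in *elp2-5* and 3.92 to 46.8 FPKM in *met1-7*. *ORA59*, the regulator of that branch, had a log2 fold change of 0.19 and was not a DEG.

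The remaining genes among the 12 largest rises were *MBP1*, *AT1G14250* and *NUDT24*. *MBP1*, a myrosinase-binding protein, had 72.5 to 262 FPKM in *elp2-5* and 4.18 to 11.8 FPKM in *met1-7* (log2 fold change 4.15, SE 0.27, limma adjusted p = 1.16e-08). *AT1G14250*, annotated as a nucleoside phosphatase, had 28.3 to 76.4 FPKM in *elp2-5* and 0.77 to 3.77 FPKM in *met1-7* (log2 fold change 4.22, SE 0.25, limma adjusted p = 3.30e-09). *NUDT24*, a Nudix hydrolase, had 15.2, 36.8, 47.7 and 6.94 FPKM in the *elp2-5* FT libraries and 9.65, 30.8, 10.8 and 22.2 in the *elp2-5* GC libraries, against 0.41, 0.07, 0.13 and 0.32 in the *met1-7* FT libraries and 0.29, 0.06, 0.16 and 0.08 in the *met1-7* GC libraries. No *met1-7* library reached 0.5 FPKM (log2 fold change 4.81, SE 0.34, limma adjusted p = 1.95e-08), and Col-0 had 0, 0.33 and 1.19 FPKM.

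Abscisic acid, drought and cold genes were mostly higher in *elp2-5*. Of 17 tested, 10 were up-regulated and 0 down-regulated, with a median of 1.08. Among all genes tested, 4.85% were up-regulated and 1.71% down-regulated, with a median of 0.12. In FT 10 were up-regulated and in GC 6. *COR15A*, a chloroplast protein of cold tolerance, had 65.2, 78.2, 55.0 and 38.1 FPKM in the *elp2-5* FT libraries and 46.9, 48.2, 41.5 and 48.9 in the *elp2-5* GC libraries, against 8.67, 2.79, 6.15 and 6.08 in the *met1-7* FT libraries and 3.76, 2.84, 5.88 and 5.02 in the *met1-7* GC libraries. Its libraries did not overlap (log2 fold change 3.28, SE 0.20, limma adjusted p = 3.74e-09), and Col-0, with 11.4, 14.4 and 17.0 FPKM, lay between the mutants. *NCED3*, the rate-limiting enzyme of abscisic acid synthesis, had 3.21 to 11.5 FPKM in *elp2-5* and 0.45 to 2.02 FPKM in *met1-7* (log2 fold change 2.14, SE 0.27, limma adjusted p = 5.91e-06). *COR15B* and *KIN2* rose by 2.57 and 1.97, and the cold regulators *CBF1*, *CBF2* and *DREB1A* (CBF3) by 1.48, 1.45 and 1.02 on the log2 scale. *ERD10*, the member of highest mean, was higher without overlap but under the fold limit (log2 fold change 0.88, SE 0.13, limma adjusted p = 2.74e-05), and the phosphatase genes *HAB1*, *ABI1* and *ABI2* were not DEGs.

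The window upstream of *COR15A* (RefSeq, TAIR10.1, chr2:17712331-17712580, minus strand) is shown for the core CCGAC that CBF proteins can bind, in capitals at −142 (on the other strand) and at −79.
COR15A: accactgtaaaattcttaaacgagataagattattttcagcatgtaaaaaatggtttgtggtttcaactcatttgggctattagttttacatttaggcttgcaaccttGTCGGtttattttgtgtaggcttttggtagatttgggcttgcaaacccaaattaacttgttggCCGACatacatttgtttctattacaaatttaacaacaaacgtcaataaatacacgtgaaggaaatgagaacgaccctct

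This core was in the window of 2 of the 17 genes of the list and of 13% of all genes tested.

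Phosphate starvation genes formed a further group. These recover phosphate and replace phospholipids with galactolipids and sulfolipids when phosphate is short. Of 13 tested, 9 were up-regulated and 0 down-regulated, with a median of 1.41. Among all genes tested, 4.85% were up-regulated and 1.71% down-regulated, with a median of 0.12. *AT5G03545*, annotated as protein-coding and as expressed in response to phosphate starvation, had 45.0, 21.0, 74.3 and 60.4 FPKM in the *elp2-5* FT libraries and 48.7, 46.6, 17.8 and 24.9 in the *elp2-5* GC libraries, against 11.1, 3.08, 11.2 and 8.03 in the *met1-7* FT libraries and 3.14, 6.68, 2.85 and 4.06 in the *met1-7* GC libraries. The mutants did not overlap (log2 fold change 2.68, SE 0.33, limma adjusted p = 6.36e-06), and Col-0 had 5.4, 11.4 and 27.8 FPKM. *SPX3*, a phosphate sensor of the SPX family, had 2.09 to 6.22 FPKM in *elp2-5* and 0.06 to 0.95 FPKM in *met1-7* (log2 fold change 2.08, SE 0.23, limma adjusted p = 1.06e-06). *MGDC*, a galactolipid synthase, had 6.77 to 11.9 FPKM in *elp2-5* and 0.87 to 3.58 FPKM in *met1-7* (log2 fold change 2.01, SE 0.22, limma adjusted p = 1.25e-06), and the phosphatase gene *PEPC1* had 5.38 to 17.36 FPKM in *elp2-5* and 1.15 to 4.59 FPKM in *met1-7* (log2 fold change 1.92, SE 0.18, limma adjusted p = 2.86e-07). *SQD1*, of sulfolipid synthesis and the member of highest mean, changed by less than 2-fold (log2 fold change 0.56, SE 0.081, limma adjusted p = 1.63e-05).

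The window upstream of *SPX3* (RefSeq, TAIR10.1, chr2:18606160-18606409, plus strand) is shown for the P1BS motif GNATATNC, which the phosphate regulator PHR1 can bind, in capitals at −213 and −90.
SPX3: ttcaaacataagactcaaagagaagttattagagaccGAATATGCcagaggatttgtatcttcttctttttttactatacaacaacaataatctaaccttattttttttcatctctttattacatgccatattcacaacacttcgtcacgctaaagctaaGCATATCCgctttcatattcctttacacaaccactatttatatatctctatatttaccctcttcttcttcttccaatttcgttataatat

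The motif, searched on both strands, was in the window of 4 of the 13 genes of the list and of 5.47% of all genes tested.

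Glucosinolates are sulfur-rich defence compounds of the cabbage family that myrosinases break down on wounding. In indole glucosinolate synthesis, 2 of 9 genes tested were up-regulated, beside 4.85% of all genes tested. Both encode the cytochromes that convert tryptophan. *CYP79B2* had 75.3, 77.9, 96.5 and 88.3 FPKM in the *elp2-5* FT libraries and 109.7, 53.2, 96.3 and 62.1 in the *elp2-5* GC libraries, against 27.0, 22.9, 28.8 and 31.3 in the *met1-7* FT libraries and 20.6, 16.7, 23.5 and 15.6 in the *met1-7* GC libraries. Its *elp2-5* libraries were all above those of *met1-7* (log2 fold change 1.8, SE 0.15, limma adjusted p = 7.44e-08), as were those of *CYP79B3* (log2 fold change 1.2, SE 0.15, limma adjusted p = 5.04e-06). In aliphatic synthesis, 1 of 18 was up-regulated, near the 4.85% of all genes tested. It was *FMO GS-OX2*, which oxidises the side chain, with 30.2 to 57.6 FPKM in *elp2-5* and 5.05 to 7.95 FPKM in *met1-7* (log2 fold change 2.48, SE 0.088, limma adjusted p = 1.70e-12). *MAM1*, the chain-elongation enzyme of highest mean, was not a DEG (log2 fold change 0.49, SE 0.13, limma adjusted p = 0.00309).

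In glucosinolate breakdown, 4 of 8 genes were up-regulated and 0 down-regulated, beside 4.85% and 1.71% of all genes tested. The specifier proteins steer the products of breakdown. *NSP1* had 366, 333, 384 and 385 FPKM in the *elp2-5* FT libraries and 378, 312, 402 and 297 in the *elp2-5* GC libraries, against 130.2, 127, 144 and 131 in the *met1-7* FT libraries and 121, 115, 151 and 125 in the *met1-7* GC libraries. The mutants were well apart (log2 fold change 1.45, SE 0.068, limma adjusted p = 7.20e-11), and the Col-0 median was 152 FPKM. *NSP5* rose by 1.12 and the myrosinase gene *TGG2* by 1.33 on the log2 scale. The libraries of *TGG2* overlapped, and *NSP5* was at 0.995 after median-ratio scaling, just under the fold limit. *ESP*, the epithiospecifier, had 15.7 to 30.0 FPKM in *elp2-5* and 3.49 to 8.12 FPKM in *met1-7* (log2 fold change 1.85, SE 0.17, limma adjusted p = 2.94e-07). Col-0 had 11.6 FPKM in FT replicate 2 and 233 to 691 FPKM in all its other libraries, with a median of 344 FPKM over all of them.

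Floral transition genes moved in both directions, with 4 of 16 up-regulated and 2 down-regulated, beside 4.85% and 1.71% of all genes tested. The repressor *FLC* had 3.06, 1.33, 4.02 and 3.0 FPKM in the *elp2-5* FT libraries and 1.41, 3.46, 0.73 and 1.0 in the *elp2-5* GC libraries, against 0.08, 0.2, 0.18 and 0.06 in the *met1-7* FT libraries and 0.19, 0.06, 0.09 and 0.31 in the *met1-7* GC libraries. It was low in both mutants, and every *elp2-5* library was above every *met1-7* library (log2 fold change 1.95, SE 0.24, limma adjusted p = 3.84e-06). Its relatives *MAF4* and *MAF5* rose by 1.24 and 2.08 and the florigen gene *TSF* by 1.24 on the log2 scale. *SWEET10*, a sugar transporter gene that florigen activates, had 0.84, 0.94, 0.64 and 1.33 FPKM in the *elp2-5* FT libraries and 1.17, 1.79, 1.06 and 0.96 in the *elp2-5* GC libraries, against 17.8, 30.6, 23.1 and 27.9 in the *met1-7* FT libraries and 13.3, 14.63, 14.4 and 14.3 in the *met1-7* GC libraries. Its *elp2-5* libraries were all under 2 FPKM (log2 fold change −3.61, SE 0.18, limma adjusted p = 2.20e-10), and Col-0, with 10.08, 14.9 and 21.5 FPKM, was near *met1-7*. *SPL3*, a promoter of flowering, had 6.26 to 11.2 FPKM in *elp2-5* and 11.6 to 25.04 FPKM in *met1-7* (log2 fold change −1.09, SE 0.11, limma adjusted p = 3.47e-07). The florigen gene *FT* itself (−0.33) and *SVP* (0.23) were not DEGs. Exons of *FLC* and *SPL3* overlap other annotated genes.

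Of 19 salicylic acid defence genes tested, 0 were up-regulated (4.85% of all genes) and 2 down-regulated (1.71% of all genes), with a median of −0.25. The difference from the jasmonate list was not tested. *FMO1*, which makes the mobile defence signal N-hydroxypipecolic acid, had 0.07 to 1.59 FPKM in *elp2-5* and 0.21 to 4.14 FPKM in *met1-7* (log2 fold change −1.41, SE 0.34, limma adjusted p = 0.00178), and *UGT76B1*, a glucosyltransferase acting on defence metabolites, had 0.2 to 2.3 FPKM in *elp2-5* and 1.1 to 7.19 FPKM in *met1-7* (log2 fold change −1.47, SE 0.41, limma adjusted p = 0.00549), both with overlap. *PR1* had 149.8, 18.9, 6.51 and 62.4 FPKM in the *elp2-5* FT libraries and 67.2, 3.32, 80.9 and 126 in the *elp2-5* GC libraries, against 111, 276, 99.9 and 57.5 in the *met1-7* FT libraries and 80.2, 312, 84.1 and 35.6 in the *met1-7* GC libraries. It varied from 3.32 to 149.8 FPKM within *elp2-5* and was not a DEG (log2 fold change −1.5, SE 0.80, limma adjusted p = 0.114). The count of DEGs in this list was 4 without *met1-7* FT replicate 2 and after quantile normalization, and 0 when only the FT libraries were fitted.

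Of 11 sugar starvation and senescence genes, 2 were up-regulated and 3 down-regulated, beside 4.85% and 1.71% of all genes tested. With only the FT libraries, 3 in all were DEGs. *SAG29*, a sugar transporter gene of senescing leaves, had 10.5 to 22.5 FPKM in *elp2-5* and 0.88 to 6.46 FPKM in *met1-7* (log2 fold change 2.62, SE 0.33, limma adjusted p = 6.54e-06), and *DIN2*, a beta-glucosidase gene, also rose (log2 fold change 2.15, SE 0.54, limma adjusted p = 0.00261) with 0.24 to 9.9 FPKM in *elp2-5* and 0 to 0.27 FPKM in *met1-7*. *DIN10*, a raffinose synthase family gene whose exons overlap another annotation, had 72.9, 34.8, 28.5 and 48.6 FPKM in the *elp2-5* FT libraries and 26.1, 64.7, 27.1 and 27.3 in the *elp2-5* GC libraries, against 154, 209.6, 150.0 and 136 in the *met1-7* FT libraries and 159, 96.2, 147 and 154 in the *met1-7* GC libraries. No library of *elp2-5* reached the lowest of *met1-7* (log2 fold change −1.94, SE 0.22, limma adjusted p = 2.68e-06). *SEN1* and *NAP* fell by 1.29 and 1.01 on the log2 scale, with overlap.

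The heat shock, DNA damage and auxin lists held 1 DEG each, beside 4.85% up-regulated and 1.71% down-regulated over all genes tested. *HSFA2*, a heat shock factor gene, was the single DEG of 9 heat shock genes, with 0.2 to 0.74 FPKM in *elp2-5* and 1.12 to 7.09 FPKM in *met1-7* (log2 fold change −1.71, SE 0.22, limma adjusted p = 4.83e-06). *GMI1*, a gene induced by DNA breaks, was the single DEG of 12 DNA damage genes, with 9.97 to 11.9 FPKM in *elp2-5* and 2.92 to 3.88 FPKM in *met1-7* (log2 fold change 1.54, SE 0.054, limma adjusted p = 1.56e-12). *AXR3*, an auxin response repressor, was the single DEG of 16 auxin genes, with 39.98 to 49.0 FPKM in *elp2-5* and 14.0 to 21.96 FPKM in *met1-7* (log2 fold change 1.22, SE 0.083, limma adjusted p = 4.81e-09).

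The mitotic cell cycle (14 genes tested), cyclin-dependent kinase inhibitor (5), hypoxia (9), clock (15) and light harvesting and Rubisco (21) lists held 0 DEGs. At an adjusted p under 0.05, 11 of 14 mitotic, 9 of 12 DNA damage and 10 of 16 auxin genes were higher in *elp2-5*, against 44.8% of all genes tested. Of the 21 light harvesting and Rubisco genes, 12 were lower by that measure, against 19.4% of all genes tested, and 0 higher, with a median of −0.34. These counts have no fold limit and used FPKM as deposited. There the median log2 fold change of all genes was 0.12, against 0.005 after median-ratio scaling. *RBCS1A*, which encodes the Rubisco small subunit, had 14179 to 16358 FPKM in *elp2-5* and 15587 to 19755 FPKM in *met1-7* (log2 fold change −0.23, SE 0.039, limma adjusted p = 1.11e-04). The morning clock genes *CCA1* (log2 fold change −0.97, SE 0.13, limma adjusted p = 7.37e-06) and *LHY* (log2 fold change −0.91, SE 0.10, limma adjusted p = 1.08e-06) were just under the fold limit, and the clock list held 1 DEG when *elp2-5* FT replicate 1, FT replicate 4, GC replicate 3, GC replicate 4 or *met1-7* FT replicate 3 was left out, 2 after median-ratio scaling and 3 with only the GC libraries.

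Of 17 leaf polarity and meristem genes, 16 were higher in *elp2-5* at an adjusted p under 0.05, against 44.8% of all genes tested, and the median was 0.42, against 0.12 over all genes. This count also used FPKM as deposited, without a fold limit. The meristem homeobox genes *KNAT1* (8.95 to 13.4 FPKM in *elp2-5* and 3.82 to 5.81 FPKM in *met1-7*, log2 fold change 1.03, SE 0.088, limma adjusted p = 5.95e-08) and *KNAT6* (5.73 to 8.12 FPKM in *elp2-5* and 2.13 to 4.87 FPKM in *met1-7*, log2 fold change 1.01, SE 0.12, limma adjusted p = 2.50e-06) were DEGs at the edge of the fold limit. *KNAT1* fell under it without *elp2-5* FT replicate 3 (0.996), *elp2-5* GC replicate 3 (0.98) or *met1-7* GC replicate 4 (0.98). *KNAT6* did so without *elp2-5* FT replicate 3 or GC replicates 2, 3 or 4, or *met1-7* FT replicate 3 or GC replicates 2 or 4, at 0.93 to 1.00. Both also did so with 1 FPKM added before logs (0.96 and 0.92), under median-ratio scaling (0.91 and 0.90) and with only the FT libraries (0.97 and 0.94).

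**Figure D4:**
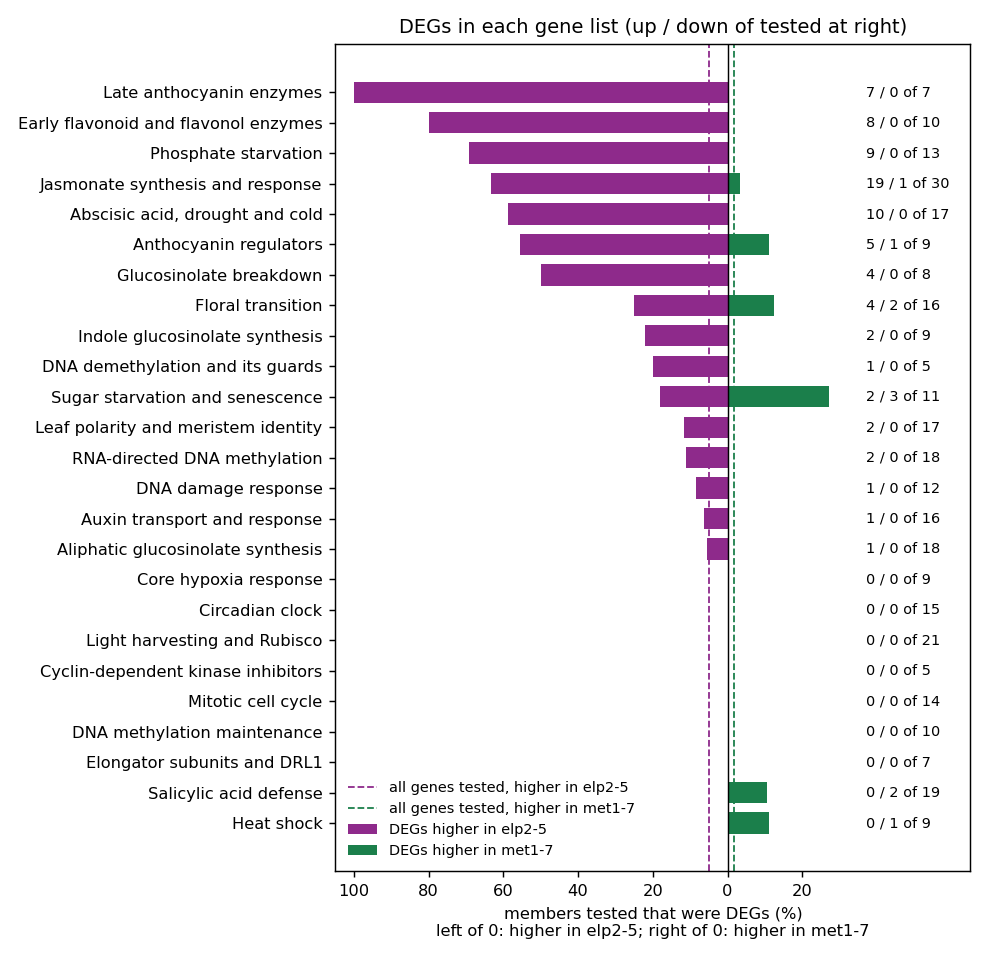
Bars give the percent of tested members that were DEGs in each gene list with at least 5 members tested, to the left of 0 those higher in *elp2-5* and to the right those higher in *met1-7*. Dashed lines mark the 4.85% and 1.71% of all genes tested, and the counts of up-regulated, down-regulated and tested members stand at the right. The late anthocyanin enzymes lead with 7 of 7, and 7 lists hold 0 DEGs.

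Over all 28 lists, 329 of 384 members were tested, and 78 (23.7%) were up-regulated and 13 (3.95%) down-regulated. The lists were drawn up with earlier results of these data known, so these shares describe the lists and are not evidence of a direction.

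The comparison within each environment gave similar numbers. In FT, 957 genes were up-regulated (4.89%) and 341 down-regulated (1.74%) in *elp2-5* relative to *met1-7*. In GC, 945 were up-regulated (4.83%) and 356 down-regulated (1.82%), a split that became 727 and 452 after median-ratio scaling and 691 and 455 after quantile normalization. FT and GC share no libraries, but their comparisons came from the same fit with a shared estimate of the spread. The genes tested were filtered over all 16 libraries. Both held 874 of these DEGs, which is 67.3% of the FT DEGs and 67.2% of the GC DEGs, 663 up-regulated and 211 down-regulated in both and 0 in opposite directions. Of the 1283 DEGs of the pooled comparison, 1282 had the same sign in FT and GC, 1205 had log2 fold changes within 1 of each other, and the median absolute difference was 0.273.

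**Figure D5:**
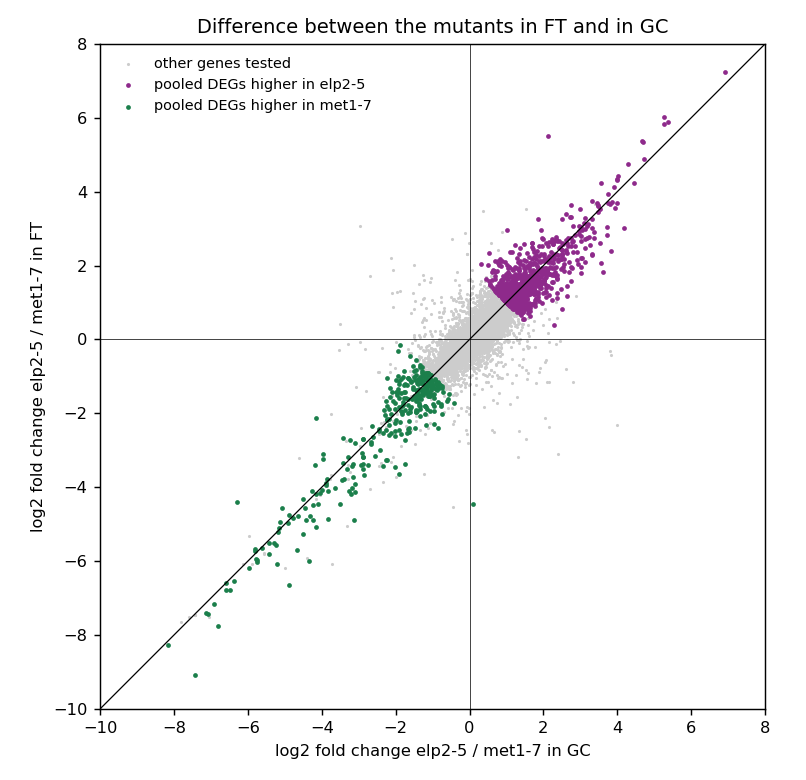
Each point is a gene, with the log2 fold change of *elp2-5* over *met1-7* in FT on the y axis and in GC on the x axis, 4 libraries against 4 in each. Purple and green points are the pooled DEGs higher in *elp2-5* and in *met1-7*, and the diagonal marks equal differences. Of the 1283 coloured points, 1282 have the same sign on both axes.

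The flight response of *elp2-5* minus that of *met1-7* was the difference between these comparisons. No gene was a DEG for it (0% of 19581 genes, limma), with 2 genes at an adjusted p under 0.05 and 2294 genes (11.7%) at an unadjusted p under 0.05. The count was 4 without *met1-7* FT replicate 4, and 1 without *elp2-5* FT replicate 2, *elp2-5* GC replicate 3 or *met1-7* GC replicate 2. A difference of differences has a larger SE than either comparison, for *SWEET10* 0.246 against 0.174 in FT and in GC. The lack of DEGs thus does not show that the mutants responded alike to flight. *XGD1*, a xylosyltransferase gene of pectin synthesis, had 21.5, 20.8, 19.4 and 20.04 FPKM in the *elp2-5* FT libraries and 25.3, 21.2, 21.9 and 24.2 in the *elp2-5* GC libraries, against 13.0, 13.6, 12.3 and 13.1 in the *met1-7* FT libraries and 8.99, 9.52, 9.88 and 8.95 in the *met1-7* GC libraries. It was higher in *elp2-5* in both environments, and *met1-7* was higher in FT than in GC without overlap (interaction −0.63, SE 0.084, limma adjusted p = 0.0362). *G6PD5*, a cytosolic glucose-6-phosphate dehydrogenase gene, had 32.5, 32.8, 33.0 and 31.2 FPKM in the *elp2-5* FT libraries and 36.8, 35.6, 31.3 and 36.0 in the *elp2-5* GC libraries, against 21.1, 22.4, 20.4 and 20.6 in the *met1-7* FT libraries and 15.8, 16.03, 15.96 and 16.2 in the *met1-7* GC libraries. It had the same pattern (interaction −0.50, SE 0.070, limma adjusted p = 0.037). Neither difference reached 2-fold.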

How the data were processed

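RNA was measured by RNA-seq in leaves of *elp2-5* and *met1-7*. The authors trimmed reads with Trimmomatic, aligned them to TAIR10 with STAR and computed FPKM per gene with RSEM (versions and strand setting not given in the sources used here), and the FPKM were used as deposited. Read counts are not among the files used here, and the depth behind a value is unknown. A relative depth from 66 genes at a single low level ran from 0.881 to 1.125 over the 16 libraries. The study's count test could not be run on FPKM.

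Samples were grouped by their labels. log2(FPKM + 0.5) was fitted in limma 3.58.1 (R 4.3.3, trend and robust eBayes, two-sided tests, Benjamini-Hochberg over 19581 genes with at least 1 FPKM in at least 4 of the 16 libraries), as genotype plus environment, or as the means of the 4 groups for FT, GC and their difference. The fit was tested on simulated data. Symbols, coordinates and windows came from TAIR10.1 (32548 of 32833 locus tags matched). Near-identical copies shared at least 95% identity over 80% of the shorter transcript. Tables and figures used Python 3.11.15, pandas 2.3.3, numpy 2.4.6, Biopython 1.88 and matplotlib 3.10.9.

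Named by rule were *ELP2*, *MET1*, the 12 largest rises and falls among DEGs without overlap, and, from each list, up to 4 DEGs of largest change and the member of highest mean. Other genes were named after their values were seen. The comparison, the members and the gene lists were chosen with earlier results of these data known. Alternatives were other pseudocounts, filters, scalings, weights, samples and genes, the replicate block, and each library left out in turn. Root libraries were not used here.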

Additional observations from a re-analysis of the deposited data

Results flagged for a closer look

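In groups of 4 libraries, a highest or lowest library that stood apart from the other 3 by Dixon's test (critical value 0.829) was found in 20 of 378 groups (5.29%), in 19 of the named genes, where chance gives about 1 in 20. Among the *met1-7* loci, *FWA* was low in *met1-7* FT replicate 4 (50.54 FPKM, the others 110.8 to 128.2), and *AT1G59930* was at 0.0 in *elp2-5* FT replicate 4. A single *elp2-5* library was above 0 in its group for *AT1G23915* (FT replicate 3, 0.17 FPKM), *AT2G04735* (GC replicate 3, 0.93 FPKM), *AT5G01080* (GC replicate 2, 0.13 FPKM) and *AT4G07965* (GC replicate 1, 0.42 FPKM).

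In *elp2-5* FT replicate 2, *DML1* (34.24 FPKM), *SYP111* (71.08 FPKM) and *SESA1* (1.14 FPKM) were high and *EBP* (285.0 FPKM) was low. In *elp2-5* GC, *UGT76B1* was high (2.02 FPKM) and *HSFA2* low (0.2 FPKM) in replicate 1, *DIN10* was high in replicate 2 (64.73 FPKM), and *LDOX* was high (309.53 FPKM) and *chr31* low (2.12 FPKM) in replicate 4. In *met1-7* FT, *KIN2* (30.51 FPKM) and *MGDC* (3.54 FPKM) were high in replicate 1 and *ARF2* (89.64 FPKM) in replicate 2. In *met1-7* GC replicate 2, *TSO2* was high (87.0 FPKM) and *DIN10* low (96.21 FPKM). *elp2-5* FT replicate 2 held 4 of the 20.

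The difference between the mutants differed between FT and GC for *XGD1* (−0.629, limma adjusted p = 0.0362) and *G6PD5* (−0.496, limma adjusted p = 0.037), by the interaction term. Outside the comparison, seed storage and oil body genes summed to 1661 FPKM in Col-0 GC replicate 4 and to at most 1.01 FPKM in the other 7 Col-0 leaf libraries. Without that library the Col-0 mean lay nearer to *met1-7* for 845 of the up-regulated and 195 of the down-regulated DEGs.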

How the results depend on the processing

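The pooled count of 1283 DEGs ran from 998 with 1 FPKM added before logs to 1567 with 0.1 FPKM, and the counts in FT and in GC stayed within 1.5 times under the alternatives run. Leaving out each library gave 1240 to 1320 DEGs pooled, 1187 to 1336 in FT, 1212 to 1359 in GC and 0 to 4 for the flight response difference, which was 1 under median-ratio scaling. The lists held 91 DEGs in all, and 88 to 94 with each library left out, newly called members included. Over the other settings, 1089 of the tests of 94 named genes kept their direction and call, 16 lost the call, 7 gained it, 12 could not be tested, and 4 reversed, each with a value near 0. These were *DRL1* (−0.04 median-ratio, −0.037 quantile), *SYP111* (−0.013 median-ratio) and *HSP70* (0.002 with only the GC libraries). The cause was not tested. *ELP2* passed the fold limit under median-ratio scaling (−1.02) and quantile normalization (−1.09), and *FMO1* and *UGT76B1* lost their calls with only the FT libraries. With the replicate number as a block the counts were 1277 pooled (946 up, 331 down), 1278 in FT, 1283 in GC and 0 for the difference. Same-numbered libraries correlated at −0.105 to 0.116 in their deviations from the group means, so the numbers do not pair them. The depth in reads is unknown, so no counting error could be given for low FPKM.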

Other observations

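The genes in this part were chosen after their values were seen, and they belong to none of the gene lists. Several genes of sulfur supply were DEGs higher in *elp2-5*. *LSU1*, a gene known to respond to low sulfur, had 101, 155 and 205 FPKM in *elp2-5*, against 11.4, 23.1 and 31.7 FPKM in *met1-7* as the lowest, median and highest of 8 libraries (log2 fold change 2.91, SE 0.14, limma adjusted p = 2.84e-10). *LSU3* (2.81), *LSU2* (1.54) and *ATSDI1* (3.84), also known for induction by sulfur deficiency, rose on the log2 scale as well. *SULTR1;3*, a sulfate transporter gene, had 4.0, 4.88 and 8.69 FPKM in *elp2-5*, against 0.08, 0.23 and 0.45 FPKM in *met1-7* (log2 fold change 3.03, SE 0.16, limma adjusted p = 2.23e-10), and *APR1* and *APR3*, of sulfate reduction, rose by 1.33 and 1.1, while *APR2* was not a DEG (0.04). Exons of *APR1*, *APR2* and *APR3* overlap other annotated genes.

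Further DEGs higher in *elp2-5* encoded lectins, transporters and a transcription factor. *JAL23*, a jacalin-related lectin, had 106, 319 and 723 FPKM in *elp2-5*, against 10.4, 26.6 and 39.3 FPKM in *met1-7*, and 57.5, 82.6 and 198 FPKM in Col-0 (log2 fold change 3.72, SE 0.35, limma adjusted p = 4.55e-07). *MBP2*, a myrosinase-binding protein gene, rose by 3.53 on the log2 scale. The sugar phosphate transporter gene *GPT2* (log2 fold change 3.61, SE 0.33, limma adjusted p = 3.09e-07) and the sugar transporter gene *SWEET13* (log2 fold change 3.39, SE 0.23, limma adjusted p = 7.87e-09) and the MADS-box gene *AGL19* (log2 fold change 3.02, SE 0.18, limma adjusted p = 1.20e-09) also rose.

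Some loci that were near 0 in *elp2-5* were transcribed both in *met1-7* and in Col-0. *AT4G19240* had 0, 0 and 0.09 FPKM in *elp2-5*, against 6.14, 7.32 and 8.66 FPKM in *met1-7*, and 0, 12.9 and 22.7 FPKM in Col-0 (log2 fold change −3.89, SE 0.076, limma adjusted p = 3.83e-16), and *AT5G15420* had 0 to 0.11 FPKM in *elp2-5* and 14.9 to 23.7 FPKM in *met1-7*, and 0 to 11.1 FPKM in Col-0 (log2 fold change −5.14, SE 0.081, limma adjusted p = 2.16e-17). Col-0 FT replicate 2 was the Col-0 library at 0 for both, as it was the lowest for *AT2G15555* and *ESP*. Others were high in *met1-7* and variable in *elp2-5*. *AT3G01345* had 1.01, 2.69 and 64.7 FPKM in *elp2-5*, against 197, 211 and 236 FPKM in *met1-7*, and 0.12, 0.39 and 1.28 FPKM in Col-0 (log2 fold change −5.34, SE 0.64, limma adjusted p = 5.86e-06), and *AT5G03090* had 0, 3.4 and 15.8 FPKM in *elp2-5*, against 162, 174 and 265 FPKM in *met1-7*, and 0, 0 and 0 FPKM in Col-0 (log2 fold change −5.77, SE 0.50, limma adjusted p = 2.25e-07).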
